A study of Homo sapiens with 6 samples.

Results

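The genes described here are 39 integrin and focal adhesion genes, picked by symbol from a table of 23368 gene symbols. They comprise 12 integrin alpha chains, 8 integrin beta chains, 15 adaptors of the adhesion plaque and 4 membrane partners, namely 3 tetraspanins and caveolin-1. They were measured by RNA-seq in MDA-MB231, an established cell line from a triple-negative breast carcinoma, in 6 libraries that form 3 groups of 2. The siL1 group and the siL2 group had each been transfected with a different siRNA against LSD1, a demethylase of histone lysines whose gene is KDM1A, and the siControl group with a control siRNA. All cells grew in the same serum-containing medium and received the same transfection reagent, and total RNA was sequenced on an Illumina platform. The labels do not say whether the 2 libraries of a group came from separate cultures, and p-values then reflect the spread among these libraries alone, which may be technical.

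Integrins are cell surface receptors built from 1 alpha and 1 beta chain, and the pairing decides which matrix protein is bound. Talins and kindlins bind the beta chain tail and switch the receptor on, while vinculin, zyxin and tensins tie it to actin, and FAK, paxillin and p130Cas pass signals inward. In breast carcinoma cells these receptors serve attachment, spreading and migration on collagen, laminin, fibronectin and vitronectin. Tetraspanins sit beside integrins in the membrane, and caveolin-1 coats the small membrane pits called caveolae.

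KDM1A stood at 27.7 and 28.1 CPM (counts scaled to the library total) in the siL1 libraries and at 17.4 and 18.1 CPM in the siL2 libraries, against 158 and 165 CPM in the siControl libraries. On the log2 scale its fall was -2.53 with siL1 (adjusted p = 1.09e-11) and -3.19 with siL2 (adjusted p = 2.16e-12), so the remaining level differed between the siRNAs (siL2 over siL1 -0.66, adjusted p = 4.36e-06). The libraries held 22047738 to 26765079 counts, and 13322 genes had enough reads to be tested, 33 of the 39 members among them. The MDA-MB231 markers VIM, CD44, AXL and MSN summed to 6979 to 7049 CPM with siL1, 7514 to 7546 CPM with siL2 and 7047 to 7253 CPM in siControl. Single markers in that sum moved. With siL1, AXL was higher (0.31 on the log2 scale, adjusted p = 2.99e-05). CD44 (-0.36, adjusted p = 2.59e-06), MSN (-0.13, adjusted p = 0.0178) and VIM (-0.09, adjusted p = 0.0368) were lower. With siL2, only AXL had an adjusted p under 0.05 (0.29, adjusted p = 5.46e-05). ESR1, PGR and CDH1, which define luminal or epithelial breast cells, lay below the filter. The other 2 markers listed as low in this line were measurable, ERBB2 at 46.6 to 59.8 CPM and the epithelial marker EPCAM at 9.34 to 12.6 CPM over the 6 libraries. A log2 fold change is the siRNA group over siControl unless siL2 over siL1 is named. Both siRNA groups are set against the same siControl libraries, so the 2 sets of changes are not independent of each other. Passing the test means an adjusted p under 0.05 in edgeR's quasi-likelihood test over all 13322 genes.

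Earlier examination of these same data picked short sequences in 3' untranslated regions (3' UTRs) that went with the changes, and 6 stretches are printed here: 3 from alpha or beta chains that rose with both siRNAs, and 3 from members with GTTACAA that moved in different directions with siL2. They are printed in the sense of the mRNA, from GENCODE v29 on GRCh38, with the heptamer in capitals. TACATTT and its neighbour ACATTTA, which overlap where the letters read TACATTTA, were picked for genes higher with both siRNAs, ACAGAGC for genes lower with siL1 and GTTACAA for genes lower with siL2. The first 3 lines show TACATTT in ITGAV (chr2:186677461-186677490, plus strand), ITGB2 (chr21:44886041-44886070, minus strand) and ITGA1 (chr5:52952982-52953011, plus strand). The last 3 lines show GTTACAA in FERMT2 (chr14:52857410-52857439, minus strand), CAV1 (chr7:116561131-116561160, plus strand) and ITGA2 (chr5:53094718-53094747, plus strand).
ITGAV: aagttcagacaTACATTTaataacataggg
ITGB2: gccaatttattTACATTTaaacttgtcagg
ITGA1: gtcaccaagaaTACATTTagcatctttgtg
FERMT2: tctgttgcgctGTTACAAtctgtattggtg
CAV1: gtcctgtaaagGTTACAAgcctgcacaata
ITGA2: tattgaatattGTTACAAttgttttgaaaa
Only the strand of the mRNA was searched, in the longest annotated 3' UTR of each gene, with a minimum of 50 bases. TACATTT or ACATTTA occurred in 8 of the 33 tested members (24.2%), against 35.3% of the 11381 tested genes with such a 3' UTR. GTTACAA occurred in 4 members (12.1%), against 9.56% of those genes, and ACAGAGC in 8 members (24.2%), against 18.0%. The median 3' UTR was 1590 bases in the members and 1424 bases in all of those genes. Among those genes, the carriers of TACATTT or ACATTTA had a median of 2742 bases. Of the 8 members with TACATTT or ACATTTA, 5 rose and 0 fell with siL1, and 4 rose and 0 fell with siL2. Of the 25 without either heptamer, 15 rose and 4 fell with siL1, and 15 rose and 6 fell with siL2. The GTTACAA carriers were ITGA2, PARVA, FERMT2 and CAV1, and with siL2 ITGA2 and CAV1 rose, FERMT2 fell and PARVA did not pass. Of the 8 members with ACAGAGC, 3 rose and 1 fell with siL1. Because the heptamers were picked from these same data by direction of change, these counts describe the members and cannot test the heptamers. A match is only a run of letters, and the sequences of the siRNAs were not among the sources used here.

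To set the genes against one another, CPM was divided by the length of each gene's annotated exons in kilobases. On this scale CAV1 was highest in siControl at 235 CPM per kb, followed by ITGB1 at 103, ILK at 92.6, PXN at 58.2 and ZYX at 56.5 CPM per kb. Among the alpha chains the order in siControl was ITGA6 at 43.0, ITGA3 at 36.1, ITGA5 at 19.9, ITGAV at 12.5 and ITGA2 at 11.1 CPM per kb, and the siControl values of ITGAV and ITGA2 overlapped. ITGAE followed at 5.86 CPM per kb. The beta chains after ITGB1 were ITGB5 at 10.3, ITGB4 at 2.99, ITGB2 at 0.697 and ITGB3 at 0.693 CPM per kb. With siL1 the order at the top of the alpha chains was the other way round, with ITGA3 at 54.1 and ITGA6 at 41.3 CPM per kb, while with siL2 the levels were 50.7 and 51.4 CPM per kb. ITGA3 and ITGA6 are chains of laminin receptors, ITGA5 of the fibronectin receptor and ITGAV of vitronectin receptors. ITGA1, ITGA10, ITGA7 and ITGB8 all lay under 1 CPM per kb in each group. The exon length counts every annotated isoform, so genes with many isoforms are set low.

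**Figure D1:**
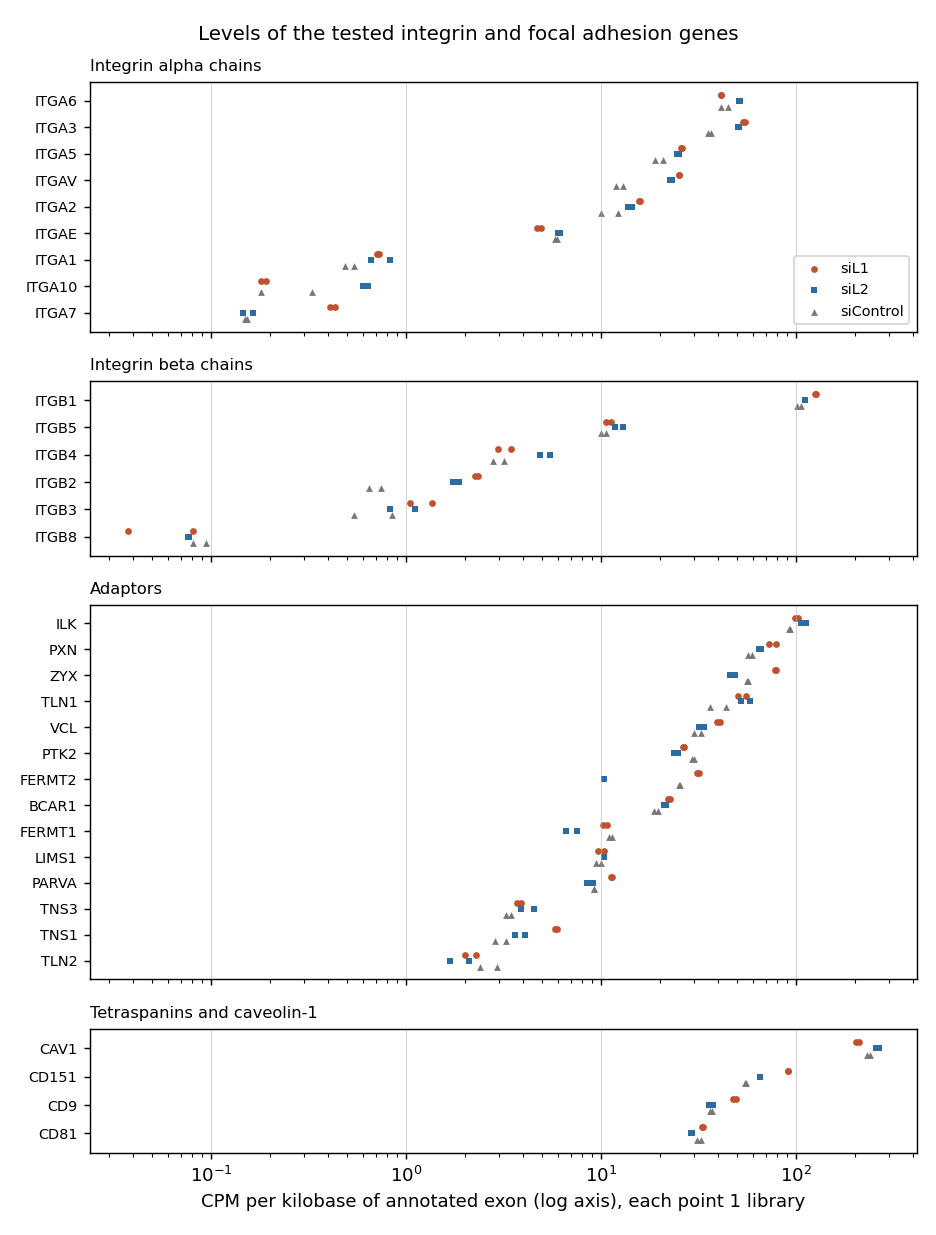
Level of each of the 33 tested members in every library, in CPM per kilobase of annotated exon on a log axis, with siL1, siL2 and siControl drawn in different colours and marks. CAV1, ITGB1 and ILK stand highest, and ITGB8, ITGA7 and ITGA10 lowest.

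Across the members, 20 rose and 4 fell with siL1 and 9 did not pass the test, so 72.7% of the 33 were called, against 50.4% of all genes tested (24.7% higher, 25.7% lower). With siL2, 19 rose, 6 fell and 8 did not pass, or 75.8% called, against 45.8% of all genes (22.6% higher, 23.3% lower). The median log2 fold change of the members was 0.30 with siL1 and 0.17 with siL2, against -0.014 and -0.0036 over all genes tested. Well-expressed genes are called more often, so the share was also taken among genes averaging 10 CPM or more, a limit chosen after the data were seen. There, 18 of 29 members rose and 4 fell with siL1 (75.9%), against 58.4% of 9404 genes (25.9% higher, 32.4% lower). With siL2, 18 rose and 6 fell (82.8%), against 54.9% of those genes (26.1% higher, 28.8% lower). Most changes were small. With a log2 change of at least 0.5 required as well, 8 members rose and 0 fell with siL1, where the shares of all genes were 11.1% higher and 5.73% lower. With siL2, 5 members did so upward and 2 downward, where the shares were 8.11% and 5.81%.

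**Figure D2:**
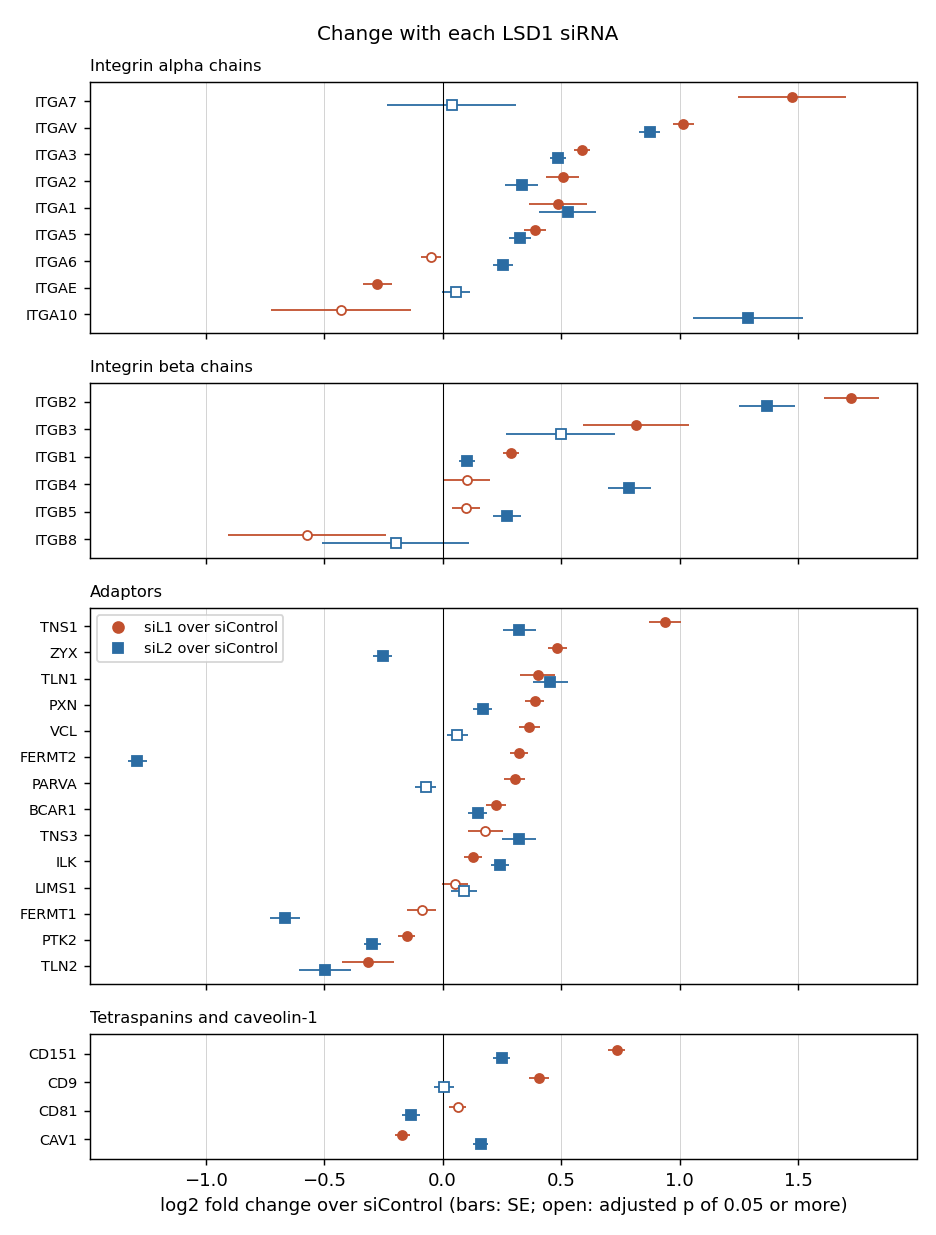
Log2 fold change over siControl of each tested member with siL1 and with siL2, ordered within its class, with bars for the SE and open marks where the adjusted p was 0.05 or more. ITGAV and ITGB2 lie well to the right of 0 for both siRNAs, while FERMT2 lies at 0.32 for siL1 and at -1.29 for siL2.

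Of the 9 tested alpha chains, 6 rose and 1 fell with siL1, and 7 rose and 0 fell with siL2, with median log2 fold changes of 0.49 and 0.33. That is 77.8% called with each siRNA, against 50.4% of all genes tested with siL1 and 45.8% with siL2. The largest change among the well-expressed chains was in ITGAV, the alpha chain of the receptors for vitronectin and other proteins with an Arg-Gly-Asp motif. ITGAV had 207 and 206 CPM in the siL1 libraries and 190 and 187 CPM in the siL2 libraries, against 106 and 98.8 CPM in the siControl libraries. Every library of both siRNAs lay far above both siControl libraries, with group means of 207 ± 0.421, 188 ± 2.54 and 103 ± 5.31 CPM (SD, n = 2 each). The log2 fold change was 1.02 ± 0.0444 (SE) with siL1 (adjusted p = 3.46e-09) and 0.87 ± 0.0444 with siL2 (adjusted p = 1.13e-08). ITGA5, the fibronectin receptor chain and the other Arg-Gly-Asp binder among the alpha chains, also rose, by 0.39 with siL1 (adjusted p = 2.01e-05) and by 0.33 with siL2 (adjusted p = 0.000103).

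The laminin-binding chains moved unevenly. ITGA3 had 536 and 524 CPM under siL1, 499 and 494 CPM under siL2 and 358 and 349 CPM under siControl, and no groups overlapped. It rose by 0.59 ± 0.0337 (SE) with siL1 (adjusted p = 3.22e-08) and by 0.49 ± 0.0337 with siL2 (adjusted p = 1.74e-07). ITGA6, which pairs with beta1 or beta4, did not pass with siL1 (-0.05, adjusted p = 0.35) and rose by 0.25 with siL2 (adjusted p = 0.000323). ITGA7, a laminin receptor chain known best from muscle, was scarce, at 2.59 and 2.76 CPM under siL1, 1.05 and 0.934 CPM under siL2 and 0.952 and 0.974 CPM under siControl. Its siL1 libraries stood apart and the siL2 and siControl libraries overlapped, with a log2 fold change of 1.47 ± 0.227 (SE) with siL1 (adjusted p = 0.000151) and 0.04 with siL2 (adjusted p = 0.929). The exons of ITGA7 overlap those of METTL7B, which was higher with siL1 too (0.93, adjusted p = 0.00181), and whether the counting used strand is not given in the sources used here, so reads of the 2 genes cannot be told apart.

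Of the collagen-binding chains, ITGA2 was the most abundant, at 126 and 124 CPM under siL1, 114 and 109 CPM under siL2 and 96.5 and 79.7 CPM under siControl. All siRNA libraries lay above both siControl libraries. ITGA2 rose by 0.51 ± 0.0697 (SE) with siL1 (adjusted p = 5.98e-05) and by 0.33 ± 0.0698 with siL2 (adjusted p = 0.00164), and without siControl replicate 2 the siL2 value was 0.20 (adjusted p = 0.0143). ITGA1 had 13.2 and 13.6 CPM under siL1, 15.4 and 12.3 CPM under siL2 and 10.1 and 9.10 CPM under siControl. Both siRNA groups lay above siControl and overlapped each other. The ITGA1 log2 fold change was 0.49 ± 0.123 (SE) with siL1 (adjusted p = 0.00523) and 0.53 ± 0.121 with siL2 (adjusted p = 0.00315). PELO, whose exons overlap those of ITGA1, was also higher, by 0.34 and 0.27, and its part in the ITGA1 value was not tested.

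ITGA10, a collagen receptor chain known from cartilage, had 1.15 and 1.22 CPM under siL1, 3.81 and 4.06 CPM under siL2 and 2.09 and 1.14 CPM under siControl. Only the siL2 libraries stood apart, and the siL1 and siControl libraries overlapped. The gene rose by 1.29 ± 0.232 (SE) with siL2 (adjusted p = 0.000574), while with siL1 its log2 fold change was -0.43 (adjusted p = 0.248), or -0.81 (adjusted p = 0.0387) without siControl replicate 2. ITGAE, which pairs with beta7 to bind E-cadherin on epithelium, fell by 0.28 with siL1 (adjusted p = 0.00222) and had a log2 fold change of 0.06 with siL2 (adjusted p = 0.459). ITGA4, ITGA9 and ITGA11 lay below the filter, under 1 CPM in every library, so no change was detectable at this depth.

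Among the 6 tested beta chains, 3 rose and 0 fell with siL1, and 4 rose and 0 fell with siL2. With siL1 the called share was 50%, near the 50.4% of all genes tested. With siL2 it was 66.7%, against 45.8%. ITGB1, the partner of most of the alpha chains above, was the most abundant at 760 and 753 CPM under siL1, 668 and 668 CPM under siL2 and 636 and 607 CPM under siControl. It rose by 0.29 with siL1 (adjusted p = 1.67e-05). With siL2 the rise of 0.10 was marginal (adjusted p = 0.0272), since the call was lost without siL2 replicate 1, siL2 replicate 2 or siControl replicate 2 (adjusted p = 0.0921, 0.11 and 0.218). The log2 fold changes of ITGB1 were smaller than those of ITGAV and ITGA3 with either siRNA, a difference between genes that was not tested.

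The largest rise of a beta chain was in ITGB2, the beta chain of the leukocyte integrins, from a low level. ITGB2 had 15.3 and 16.0 CPM in the siL1 libraries and 12.7 and 11.9 CPM in the siL2 libraries, against 4.40 and 5.08 CPM in the siControl libraries. The 3 groups did not overlap in any comparison, with averages of 15.6 ± 0.475, 12.3 ± 0.629 and 4.74 ± 0.481 CPM (SD, n = 2 each). The log2 fold change was 1.72 ± 0.116 (SE) with siL1 (adjusted p = 1.27e-07) and 1.37 ± 0.119 with siL2 (adjusted p = 1.37e-06). Of 10 blood cell markers 1 passed the filter, CD68, and the 10 together summed to 206 to 223 CPM with siL1, 269 to 272 CPM with siL2 and 213 to 223 CPM in siControl. HBB and HBA1 had 0 counts in all libraries, and the leukocyte gene PTPRC was below the filter. ITGAL, ITGAM, ITGAX and ITGAD, the alpha chains that pair with ITGB2, were below the filter too. An antisense gene of ITGB2 overlaps its exons and is not in the table.

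ITGB4, which pairs with alpha6 in the laminin receptor of hemidesmosomes, had 23.3 and 20.04 CPM under siL1, 37.0 and 33.0 CPM under siL2 and 21.5 and 19.0 CPM under siControl. The siL2 libraries lay above the other 4, and the siL1 and siControl libraries overlapped. ITGB4 rose by 0.79 ± 0.0916 (SE) with siL2 (adjusted p = 1.66e-05), beside a log2 fold change of 0.10 with siL1 (adjusted p = 0.396). ITGA6 and ITGB4, the 2 chains of that receptor, thus both rose with siL2 and neither passed the test with siL1.

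Of the 3 tested partners of alphaV other than beta1, 1 rose with each siRNA. This share of 33.3% lay below the 50.4% of all genes called with siL1 and the 45.8% with siL2. ITGB3 had 4.64 and 5.96 CPM under siL1, 4.89 and 3.65 CPM under siL2 and 3.72 and 2.37 CPM under siControl. Its siL1 libraries lay above siControl, while the siL2 libraries overlapped both other groups. ITGB3 rose by 0.81 ± 0.223 (SE) with siL1 (adjusted p = 0.00852), but the call was lost without siL1 replicate 2 (0.61, adjusted p = 0.0883) or without siControl replicate 2 (0.51, adjusted p = 0.101). With siL2 its log2 fold change was 0.50 (adjusted p = 0.0936), which passed without siL2 replicate 2 (0.69, adjusted p = 0.0334) or without siControl replicate 1 (0.85, adjusted p = 0.0216). ITGB5 rose by 0.27 with siL2 (adjusted p = 0.00216) and had a log2 fold change of 0.10 with siL1 (adjusted p = 0.191). ITGB8 stayed at 0.568 to 1.44 CPM and passed with neither siRNA (-0.57 and -0.20), although it passed with siL1 once siL1 replicate 1 was left out (-1.22, adjusted p = 0.0249). ITGB6 and ITGB7 were below the filter, and ITGB6 had 0 counts in both siControl libraries.

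**Figure D3:**
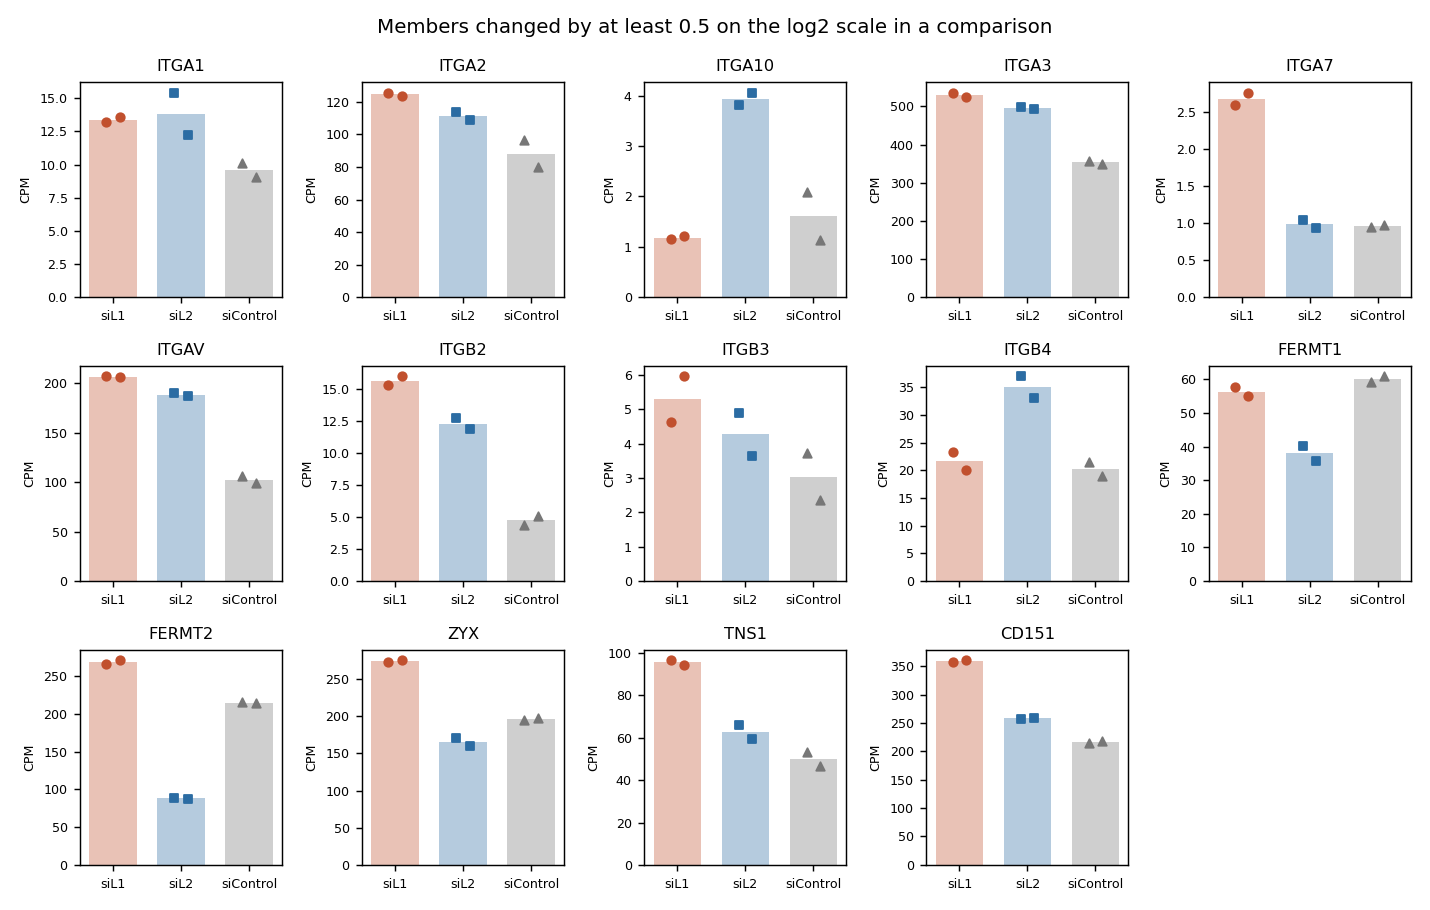
CPM of the 14 members that passed the test with a log2 change of at least 0.5 in some comparison, each point 1 library and each bar the mean of its group, on axes that start at 0. ITGAV, ITGA3 and ITGB2 are higher with both siRNAs than in siControl, and FERMT2, with 88.7 and 87.8 CPM, is low only in the 2 siL2 libraries.

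Among the 14 tested adaptors, 9 rose and 2 fell with siL1, with a median log2 fold change of 0.26, while 6 rose and 5 fell with siL2, with a median of 0.08. The called share was 78.6% with each siRNA, against 50.4% of all genes tested with siL1 and 45.8% with siL2. The proteins that switch integrins on are the talins and the kindlins. FERMT2, which encodes kindlin-2, had 266 and 271 CPM in the siL1 libraries and 88.7 and 87.8 CPM in the siL2 libraries, against 216 and 214 CPM in the siControl libraries. Its 3 groups were far apart, with means of 268 ± 3.89, 88.2 ± 0.586 and 215 ± 1.42 CPM (SD, n = 2 each). FERMT2 rose by 0.32 ± 0.0375 (SE) with siL1 (adjusted p = 1.44e-05), and with siL2 it fell by 1.29 ± 0.0398 on the log2 scale (adjusted p = 1.34e-10). The GTTACAA stretch of FERMT2 lies 949 bases into a 3' UTR of 1109 bases. Of the other members with this heptamer, CAV1 and ITGA2 rose with siL2 and PARVA did not pass (-0.07, adjusted p = 0.221). The part of the heptamer in these values was not tested. FERMT1, the epithelial kindlin, had 57.6 and 55.0 CPM under siL1, 40.3 and 35.6 CPM under siL2 and 59.2 and 60.9 CPM under siControl. The siL2 libraries were lowest, and all groups stood apart, though FERMT1 fell only with siL2 (-0.66 ± 0.0645, SE, adjusted p = 3.58e-06) and did not pass with siL1 (-0.09, adjusted p = 0.259).

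Talin-1, encoded by TLN1, rose by 0.40 with siL1 (adjusted p = 0.000593) and by 0.46 with siL2 (adjusted p = 0.00026). Its siControl libraries differed between themselves, at 444 and 366 CPM, and without siControl replicate 2 the siL1 value was 0.27 (adjusted p = 0.00324). TLN2, the less abundant talin, fell by 0.50 with siL2 (adjusted p = 0.00259) and by 0.32 with siL1 (adjusted p = 0.0293), where the call was lost without siL1 replicate 2 (adjusted p = 0.187) or siControl replicate 1 (-0.17, adjusted p = 0.27). Of the 4 activators, 2 rose and 1 fell with siL1, and 1 rose and 3 fell with siL2. These shares of 75% and 100% stood against 50.4% and 45.8% of all genes tested.

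The complex of ILK, PINCH and parvin binds the beta chain tail beside the kindlins and leads to actin. ILK rose by 0.13 with siL1 (adjusted p = 0.0145) and by 0.24 with siL2 (adjusted p = 0.000197), and the siL1 call was lost without siL1 replicate 1 (adjusted p = 0.111) or siControl replicate 2 (adjusted p = 0.0725). TAF10, whose exons overlap those of ILK, was higher by 0.20 with siL1 and 0.22 with siL2, and its part in the ILK values was not tested. PARVA, the alpha-parvin gene, rose by 0.30 with siL1 (adjusted p = 0.000101) and had a log2 fold change of -0.07 with siL2 (adjusted p = 0.221). LIMS1, which encodes PINCH-1 and has a near-identical copy whose reads may be split from it, passed with neither siRNA (0.05 and 0.09). PARVB was below the filter.

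Actin linkers also differed between the siRNAs. ZYX, which encodes zyxin, a protein of mature adhesions and stress fibres, had 273 and 275 CPM under siL1, 170 and 160 CPM under siL2 and 195 and 198 CPM under siControl. The siL1 libraries were all above siControl and the siL2 libraries all below it. ZYX rose by 0.48 ± 0.0399 (SE) with siL1 (adjusted p = 7.52e-07), and with siL2 it fell by 0.25 ± 0.0405 on the log2 scale (adjusted p = 0.000238). TNS1, the tensin-1 gene, had 96.6 and 94.6 CPM under siL1, 66.2 and 59.2 CPM under siL2 and 53.4 and 46.8 CPM under siControl. It was highest with siL1 and intermediate with siL2, with no overlap, and rose by 0.94 ± 0.0682 (SE) with siL1 (adjusted p = 2.55e-07) and by 0.32 ± 0.0698 with siL2 (adjusted p = 0.00209). VCL, which encodes vinculin, rose by 0.37 with siL1 (adjusted p = 2.05e-05) and had a log2 fold change of 0.06 with siL2 (adjusted p = 0.283). TNS3, the tensin-3 gene, rose by 0.32 with siL2 (adjusted p = 0.0025) and lay at the threshold with siL1 (0.18, adjusted p = 0.0546), which it passed without siL2 replicate 1 (adjusted p = 0.0327) or siL2 replicate 2 (adjusted p = 0.0313).

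The signalling adaptors changed modestly and in different directions. PTK2, the gene of focal adhesion kinase (FAK), fell by 0.15 with siL1 (adjusted p = 0.00361) and by 0.30 with siL2 (adjusted p = 2.49e-05). PXN, which encodes paxillin, rose by 0.39 with siL1 (adjusted p = 5.17e-06) and by 0.17 with siL2 (adjusted p = 0.00369). BCAR1, the p130Cas gene, rose by 0.23 with siL1 (adjusted p = 0.000582) and by 0.15 with siL2 (adjusted p = 0.0107), where the call was lost without siL2 replicate 2 (adjusted p = 0.0747) or siControl replicate 1 (adjusted p = 0.1). At the RNA level PTK2 was thus lower, and PXN and BCAR1 higher, with both siRNAs, and a link between these changes was not tested.

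Of the membrane partners, CD151, the tetraspanin bound to the laminin-binding integrins, changed most. CD151 had 357 and 361 CPM under siL1, 257 and 259 CPM under siL2 and 215 and 218 CPM under siControl, so the groups lay in 3 separate bands. It rose by 0.73 ± 0.0356 (SE) with siL1 (adjusted p = 7.79e-09) and by 0.25 ± 0.0357 with siL2 (adjusted p = 9.34e-05). POLR2L, whose exons overlap those of CD151, was higher with siL1 by 0.26 and had a log2 fold change of -0.01 with siL2, and its part in the CD151 values was not tested. CD9 rose by 0.41 with siL1 (adjusted p = 4.54e-06) and had a log2 fold change of 0.01 with siL2 (adjusted p = 0.927). CD81 did not pass with siL1 (0.06, adjusted p = 0.183) and fell by 0.13 with siL2 (adjusted p = 0.0105), a call lost without siL2 replicate 1 (adjusted p = 0.07) or siControl replicate 2 (adjusted p = 0.0904). CAV1, the caveolin-1 gene, had 863 and 835 CPM under siL1, 1089 and 1057 CPM under siL2 and 975 and 940.5 CPM under siControl. It fell by 0.17 with siL1 (adjusted p = 0.000941) and rose by 0.16 with siL2 (adjusted p = 0.00151), so the siControl libraries lay between the 2 siRNA groups.

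The siRNAs were also set against each other, siL2 over siL1, which asks where the knockdowns differ. Of the 33 members, 7 were higher and 16 lower with siL2, or 69.7%, against 46.8% of all genes tested (23.2% higher, 23.7% lower). The median was -0.15 on the log2 scale. Among those averaging 10 CPM or more, 6 of 29 members were higher and 15 lower with siL2 (72.4%), against 54.5% of those genes (28.2% higher, 26.3% lower). The lower genes were mostly adaptors and tetraspanins: 8 of 14 adaptors and 3 of 3 tetraspanins were lower with siL2, while 1 adaptor, ILK, was higher (0.12, adjusted p = 0.0232), a call lost without siL1 replicate 2 (adjusted p = 0.144) or siL2 replicate 1 (adjusted p = 0.212). With a log2 difference of at least 0.5 required as well, 2 members were higher and 5 lower, where 6.38% of all genes were higher and 8.53% lower. FERMT2 differed most among the abundant members, at -1.61 ± 0.0396 (SE, adjusted p = 5.58e-11), followed by ZYX at -0.74 ± 0.0401 (adjusted p = 2.62e-08). TNS1 differed by -0.62 ± 0.0661 (adjusted p = 9.15e-06), FERMT1 by -0.58 ± 0.0645 (adjusted p = 1.34e-05) and CD151 by -0.48 ± 0.0352 (adjusted p = 3.01e-07). PARVA, VCL, CD9, PXN and ITGB1 were lower with siL2 by smaller amounts (-0.37, -0.30, -0.40, -0.22 and -0.19).

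Laminin receptor chains of the alpha6beta4 pair were higher with siL2 than with siL1: ITGB4 by 0.68 ± 0.0901 (SE, adjusted p = 4.99e-05) and ITGA6 by 0.30 (adjusted p = 8e-05). CAV1 and ITGAE were higher too, each by 0.33. Among the scarce chains, ITGA10 was higher with siL2 by 1.72 ± 0.244 (SE, adjusted p = 9.32e-05) and ITGA7 lower, at -1.44 ± 0.22 (adjusted p = 0.000167). ITGB2 was lower with siL2, at -0.36 ± 0.0983 (adjusted p = 0.00971), a call lost without siL1 replicate 2 (adjusted p = 0.0688) or siL2 replicate 2 (adjusted p = 0.0667). ITGAV at -0.14 (adjusted p = 0.0152) and ITGA3 at -0.10 (adjusted p = 0.0225) passed narrowly. The ITGAV call was lost without siL1 replicate 1, siL1 replicate 2 or siL2 replicate 2 (adjusted p = 0.0554 to 0.0853), and the ITGA3 call without any 1 of the 4 siRNA libraries (adjusted p = 0.0564 to 0.119). ITGB5 was higher with siL2 by 0.17 (adjusted p = 0.0271), a call lost without siL1 replicate 2 (adjusted p = 0.172) or siL2 replicate 1 (adjusted p = 0.252). PTK2 and CD81 were lower with siL2, at -0.15 (adjusted p = 0.00521) and -0.20 (adjusted p = 0.000844), and the PTK2 call was lost without siL2 replicate 2 (adjusted p = 0.0697). ITGA1 (0.04), ITGA2 (-0.17), ITGA5 (-0.07), TLN1 (0.05), TLN2 (-0.18), TNS3 (0.14), BCAR1 (-0.08), LIMS1 (0.04), ITGB3 (-0.32) and ITGB8 (0.37) did not pass. Of these, ITGA2 had an adjusted p of 0.0527, and passed when either siControl library was left out (adjusted p = 0.00715 and 0.00705). TLN2 passed without siL2 replicate 1 (-0.36, adjusted p = 0.02) and TNS3 without siL2 replicate 2 (0.24, adjusted p = 0.0207).

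**Figure D4:**
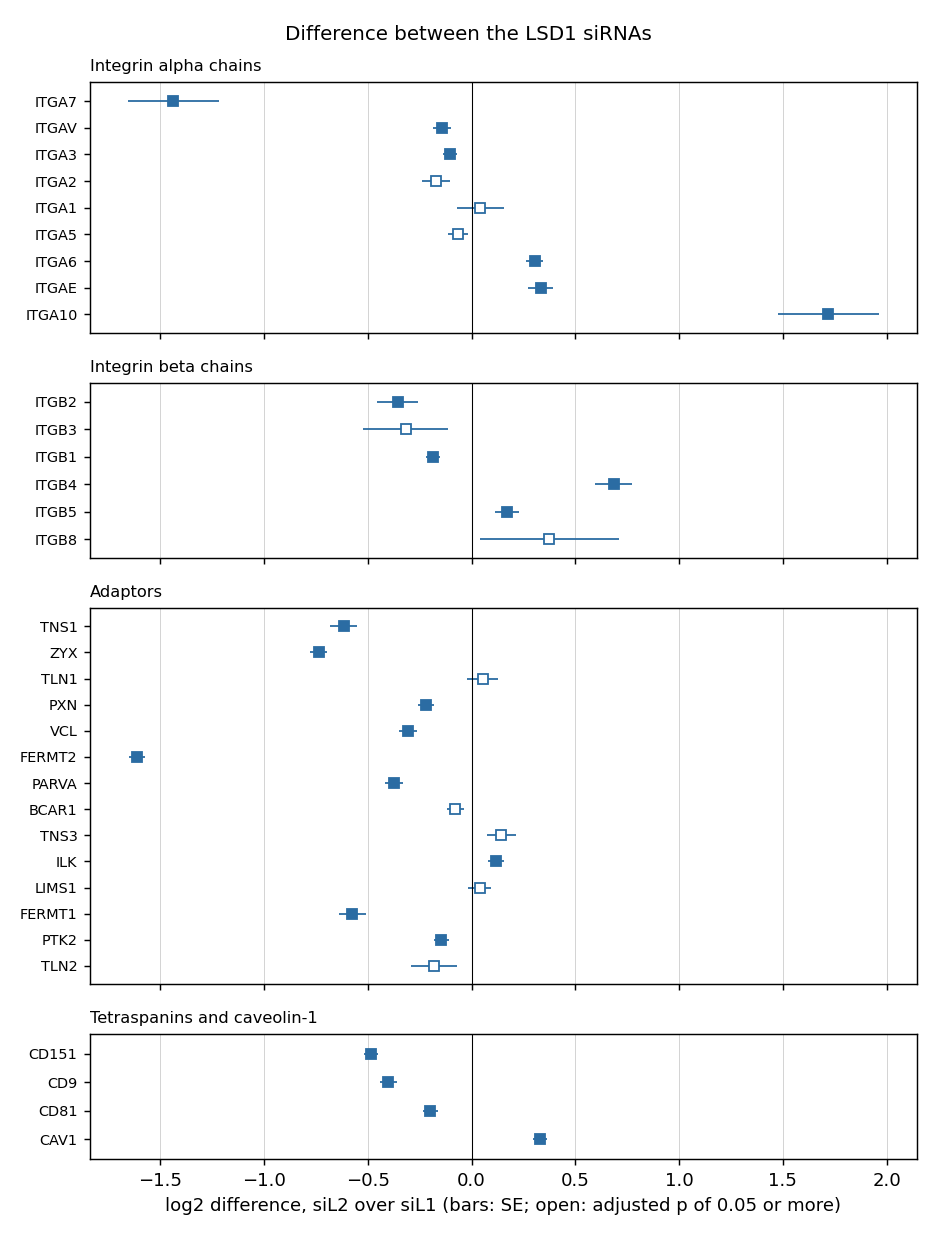
Log2 difference of siL2 over siL1 for each tested member, with bars for the SE and open marks where the adjusted p was 0.05 or more. FERMT2 at -1.61 and ITGA7 at -1.44 lie farthest to the left, and ITGA10 at 1.72 and ITGB4 at 0.68 farthest to the right.

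A further 116 genes of the adhesion pathway, listed from general knowledge, were counted in the same way, and 101 of them were tested. With siL1, 45 rose and 12 fell (56.4%, against 50.4% of all genes tested), and with siL2, 36 rose and 19 fell (54.5%, against 45.8%). Other actin linkers split into 12 that rose and 3 that fell of 24 with siL1, and 10 and 8 with siL2 (62.5% and 75% called). Of 19 other tetraspanins and caveolar genes, 11 rose and 1 fell with siL1, and 9 rose and 1 fell with siL2 (63.2% and 52.6% called). Of 20 other FAK and Src signalling genes, 6 rose and 3 fell with siL1 (45%), and 5 rose and 3 fell with siL2 (40%). Of 13 other activators and inhibitors, 4 rose and 2 fell with siL1 (46.2%), and 3 rose and 1 fell with siL2 (30.8%). The called shares of these last 2 lists lay below those of all genes tested. Set against siL1, siL2 gave 18 higher and 43 lower of the 101 (60.4%, against 46.8%).

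Single genes of those lists changed by more than most members. CD82, a tetraspanin known as a suppressor of metastasis, had 101 and 106 CPM under siL1, 71.4 and 70.5 CPM under siL2 and 30.8 and 36.3 CPM under siControl. It rose by 1.62 with siL1 (adjusted p = 2.57e-09) and by 1.07 with siL2 (adjusted p = 8.75e-08). LPP, a relative of zyxin, had 91.5 and 89.7 CPM under siL1, 99.4 and 97.4 CPM under siL2 and 38.9 and 35.7 CPM under siControl. It rose by 1.29 with siL1 (adjusted p = 2.89e-09) and by 1.40 with siL2 (adjusted p = 1.34e-09), where ZYX itself fell with siL2. CAV2, the partner of caveolin-1, had 137 and 140 CPM with siL2 and 69.7 and 71.0 CPM with siL1, and was higher with siL2 by 0.97 (adjusted p = 8.59e-09). In siControl it had 58.6 and 58.9 CPM, and its rise with siL2 was 1.23 (adjusted p = 8.48e-10). TSPAN6, a tetraspanin, had 58.8 and 59.0 CPM in the siL1 libraries and 28.2 and 28.3 CPM in the siControl libraries, and rose by 1.06 with siL1 (adjusted p = 2.07e-08). TSPAN15, the tetraspanin that escorts the protease ADAM10, had 15.3 and 13.6 CPM in the siL2 libraries and 8.80 and 8.38 CPM in the siControl libraries. It rose by 0.75 with siL2 (adjusted p = 0.000116). LPXN, a relative of paxillin, had 24.8 and 24.6 CPM in siL1 libraries, 13.2 and 13.7 CPM in siL2 libraries and 12.3 and 13.2 CPM in siControl libraries. It was higher with siL1 than in siControl by 0.95 (adjusted p = 1.48e-06) and differed by -0.89 in siL2 over siL1 (adjusted p = 2.83e-06). FERMT3, the blood cell kindlin, was lower with siL2 than with siL1 by the same test (-0.73, adjusted p = 1.58e-07), at 72.4 and 77.4 CPM with siL2 against 123 and 124 CPM with siL1. Its siControl libraries had 74.9 and 77.9 CPM. Over siControl, FERMT3 thus rose with siL1 (0.70, adjusted p = 2.07e-07) and did not pass with siL2 (-0.03, adjusted p = 0.621). FHL2, a LIM protein of adhesions, was also lower with siL2 than with siL1, at 60.6 and 54.2 CPM with siL2 against 96.7 and 91.5 CPM with siL1 (-0.72, adjusted p = 7.55e-07).

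**Figure D5:**
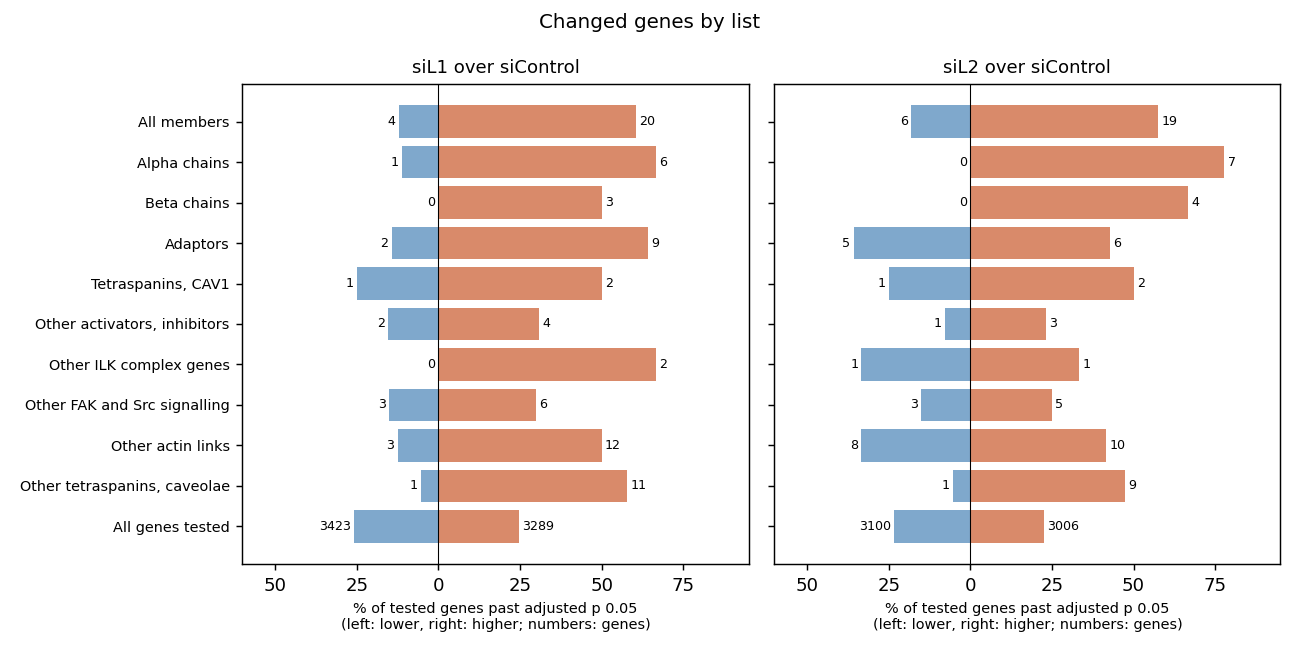
Percent of tested genes past an adjusted p of 0.05 that were higher (right of 0) or lower (left of 0), for all members, their classes, further pathway lists and all genes tested, with siL1 and with siL2 over siControl, and the number of genes written beside each bar. With siL1 the members' bars reach farther to the right than to the left, 20 against 4 genes, where all genes tested are nearly even.

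Markers of other cell types moved in part with the siRNAs. Of 8 fibroblast markers 3 were tested and 2 were higher with each siRNA, PDGFRB and COL1A1. The third, COL3A1, passed with neither (0.18, adjusted p = 0.766, with siL1 and -0.07, adjusted p = 0.925, with siL2). Of all genes tested, 24.7% were higher with siL1 and 22.6% with siL2. The 8 fibroblast markers summed to 19.4 to 20.7 CPM with siL1 and 12.3 to 13.8 CPM with siL2, against 7.03 to 7.71 CPM in siControl. DCN and LUM, which define fibroblasts, had 0 counts in every library. Of 5 endothelial markers 3 were tested, and 2 were higher with siL1 and 1 with siL2, with sums of 4.50 to 4.93 CPM, 2.64 to 3.06 CPM and 1.95 to 2.29 CPM in siL1, siL2 and siControl. Of the 4 platelet and 4 basal epithelial markers 0 passed the filter. The part of these markers in the integrin values was not tested.

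The authors' deposited table gave the same genes as linear fold changes with adjusted p-values. An adjusted p under 0.05 in the authors' deposited table was given to 21 members with siL1, 18 of them higher and 3 lower, and 21 with siL2, 17 of them higher and 4 lower. Called here but not in the authors' deposited table were, with siL1, TLN2 (authors' adjusted p = 0.209), ILK (0.0609) and ITGB3 (0.052). With siL2 they were ITGB1 (authors' adjusted p = 0.171), TLN2 (0.0845), CD81 (0.0747) and BCAR1 (0.0601). For ITGAV the authors' deposited table listed folds of 2.03 with siL1 and 1.83 with siL2, and for ITGB2 3.32 and 2.59. For FERMT2 the authors' deposited table listed 1.26 with siL1 and 0.409 with siL2, for ZYX 1.40 and 0.839, and for CAV1 0.892 and 1.12.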

How the data were processed

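Per the submitters' processing notes, the authors used TopHat 1.3.3, HTSeq and DESeq with hg19; settings, annotation and strand are not given in the sources used here. The deposited table held raw counts per gene symbol for 6 libraries. It also held the authors' fold as a linear ratio, and the authors' adjusted p-value, for each siRNA over the control. Counts were tested in R 4.3.3 with edgeR 4.0.16 (filterByExpr by group, TMM, glmQLFit over all 6 libraries with group as the only term, glmQLFTest, two-sided, Benjamini-Hochberg over 13322 genes, 3 residual degrees of freedom). A further 10046 symbols were below the filter. CPM is the raw count over the library total, and the upper limit for a gene with no read, 3 counts, was 0.112 to 0.136 CPM (counting error only). The biological coefficient of variation common to all genes was 3.72%. SDs are over 2 libraries, and SEs belong to the log2 fold changes.

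The members, lists and heptamers were chosen with earlier results of these data known. Values per library are given for 14 members past the threshold with a log2 change of at least 0.5 in a comparison, and from the pathway lists for up to 4 genes per comparison with the largest change and at least 5 CPM. The split of 1 further pathway list and 1 marker are not reported here. ITGB1, CAV1 and TLN1 were added after their values were seen. Exon lengths, overlaps and 3' UTRs come from GENCODE v29 on GRCh38, joined by symbol with Python 3.11.15 and pandas 2.3.3. Of the members, 8 overlap an exon of another gene in the table. Alternatives were other scalings and filters, DESeq2 1.42.0, limma-voom (limma 3.58.1), a replicate block, only the groups compared, a log2 minimum and each library left out. Whether the libraries of a group were 1 library deposited again was checked from their counts, and none was.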

Additional observations from a re-analysis of the deposited data

Results flagged for a closer look

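Among the members, 3 genes passed the test with both siRNAs in opposite directions. Of all genes tested, 50.4% were called with siL1 and 45.8% with siL2. The share of all genes called in opposite directions was not counted, so whether 3 is many is not known. The genes were picked for opposite calls, so a difference between the siRNAs, with siControl between them, follows from the choice. The direct comparison gives the size of that difference and is no separate support. FERMT2, the kindlin-2 gene, was higher with siL1 and lower with siL2, and differed by -1.61 on the log2 scale in siL2 over siL1 (adjusted p = 5.58e-11). ZYX, the zyxin gene, did the same with a difference of -0.74 (adjusted p = 2.62e-08). CAV1, the caveolin-1 gene, was lower with siL1 and higher with siL2, with a difference of 0.33 (adjusted p = 5.32e-06). In each of these genes the siControl libraries lay between those of the 2 siRNAs. The remaining KDM1A level also differed between the siRNAs, by -0.66 on the log2 scale, and its part in these differences was not tested.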

How the results depend on the processing

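Requiring a log2 change of at least 0.5 beside the adjusted p moved every count of calls. With siL1 the genes called numbered 2242 in place of 6712 and the members 8 (8 higher, 0 lower) in place of 24, and the further pathway genes numbered 16 higher and 1 lower. With siL2 these counts were 1855 in place of 6106 genes, 7 members (5 higher, 2 lower) in place of 25, and 8 higher and 3 lower pathway genes. For siL2 over siL1 they were 1987 in place of 6240 genes, 7 members (2 higher, 5 lower) in place of 23, and 3 higher and 9 lower pathway genes. Under the other alternatives these counts stayed within 1.5 times; with 1 library left out, members called numbered 22 to 25 with siL1, 23 to 25 with siL2 and 18 to 24 for siL2 over siL1. There were 1386 alternative values for the log2 fold changes of the 33 tested members. Of these, 1329 stayed on their side of the threshold, 30 lost the call, 27 gained it and 0 changed direction past the threshold. A change of direction between values that did not pass was not counted apart and can lie among the 1329. With DESeq2's test the siL2 over siL1 calls of ITGB2 (adjusted p = 0.0594), ILK (adjusted p = 0.052) and ITGB5 (adjusted p = 0.0674) were lost, and the cause was not tested. Replicate numbers were shared across groups, but the labels do not say what they mark. Same-numbered libraries deviated together (r = 0.229, 0.310 and 0.265 over 13322 genes, which are not independent). With the replicate number as a block, 26 members were called with siL1, 26 with siL2 and 27 for siL2 over siL1, among 8036, 7610 and 7700 genes. The block added ITGB5 (adjusted p = 0.0493) and TNS3 (adjusted p = 0.0022) with siL1 and ITGB3 (adjusted p = 0.011) with siL2. For siL2 over siL1 it added ITGA2 (adjusted p = 7e-05), TLN2 (adjusted p = 0.00375), TNS3 (adjusted p = 0.0116) and BCAR1 (adjusted p = 0.0294), and it removed no member's call. With only 2 libraries per group, the members under 5 CPM (ITGA7, ITGA10, ITGB3, ITGB8) rest on few reads, and the 6 members below the filter allow no statement.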
